A study of Mus musculus with 32 samples.

Results

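The histone deacetylases (HDACs) and the corepressor complexes they work in were followed as 36 genes of the 25067 in the count table of bone marrow-derived macrophages (BMDMs) stimulated with lipopolysaccharide (LPS). The set holds the 11 zinc-dependent HDACs, subunits of the NCoR, CoREST, NuRD and SIN3 complexes, the CtBP pair, and the H3K27 demethylases Kdm6a and Kdm6b. Each gene is represented by its RefSeq transcript with the highest mean count. Of the 36 genes, 34 passed the expression filter (RPKM averaging more than 1 in some group), and Hdac11 and Rcor2 did not.

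The study compared wild-type macrophages (BMDM-WT) with macrophages that lack the nuclear receptor Nur77, encoded by Nr4a1 (BMDM-Nur77-KO), before LPS (0 h) and after 1, 5 or 18 h of LPS at 100 ng/ml. Each of the 8 genotype-by-time groups had 4 RNA-seq libraries, 32 in all. Cells came from male mice aged 6 to 12 weeks. The knockout was made by whole-body deletion of loxP-flanked Nr4a1 with CMV-Cre and, by the study's methods, then bred free of Cre, while the labels give its genotype as cre. The methods name C57Bl6/J as the strain of the Cre parent and give none for the loxP parent. The wild-type mice were littermates. The number of mice behind the 4 libraries of a group was not stated in the sources used here, so that the spread between them may be technical. The p-values of the main test rest on a spread shared by the 8 groups, also where 1 group is more variable than the others.

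Library totals over the kept transcripts, after rounding to whole tags, ran from 8742362 to 15780926 (median 11847140.0). The deposited values come in steps of 0.5 tag. Levels are CPM, tags scaled to library size. Nr4a1 stood at 19.4, 15.5, 25.8 and 18.2 CPM in BMDM-WT at 0 h and at 4.93, 4.63, 4.46 and 7.03 CPM in BMDM-Nur77-KO, -1.90 ± 0.19 (SE) as a log2 fold change, with an adjusted p of 1.6e-08 in edgeR's quasi-likelihood test. Its remaining tags cannot be assigned to kept or deleted exons. All 8 macrophage markers were detected in every group, with a summed level of 10895 to 19484 CPM across libraries, and markers of erythroid cells and mast cells were at or near 0. BMDM-Nur77-KO 5 h replicate 1 and BMDM-Nur77-KO 18 h replicate 4 stood apart from their groups, with a spread of log2 deviations over genes of 0.573 and 0.408 against 0.180 to 0.358 in the other libraries. They also had the widest trend on transcript GC content, over 1.782 and 0.790 log2 units against at most 0.662, and its part in the knockout values at 5 and 18 h was not tested beyond the GC correction given beside results. Several results that rest on these libraries are given with and without them.

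HDACs remove acetyl groups from histones and other proteins, which compacts chromatin and lowers transcription. Most class I enzymes (Hdac1, Hdac2, Hdac3) act inside complexes: Hdac3 with NCoR, and Hdac1 with Hdac2 in NuRD, CoREST and SIN3. Class IIa enzymes have little catalytic activity of their own and shuttle between cytoplasm and nucleus, where they bind MEF2 factors and recruit NCoR. In macrophages NCoR is known to hold inflammatory genes silent at rest, and Kdm6b, which removes the repressive H3K27me3 mark, is a known early target of LPS.

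The promoters of these genes were searched for the motifs of Nur77 and of LPS-activated factors, because a genotype effect and an LPS effect were both compared. RefSeq promoters of 300 bases (GRCm38.p6, 250 before to 50 after the start) were matched for 29 of the 36 genes, 39 promoters in all. Hdac1, Hdac3, Hdac10, Chd3, Kdm6b, Mbd2 and Mta3 had no entry. The Nur77 monomer site NBRE (AAAGGTCA, either strand) was in 1 of the 39, that of Kdm6a, against 1.51% of 32851 promoters in the table. The AP-1 site (TGACTCA or TGAGTCA) was in 2 of the 39 (Gatad2a and the promoter of an internal start of Hdac7), against 5.20% of all. The CRE (TGACGTCA) was in 0 of the 39, against 1.79% of all. The NF-kB consensus was in 6 of the 39, from Chd4, Ncor1, Rbbp7, Rcor3 and Sin3a, against 8.46% of all. None of these motifs overlapped another in the sequences shown. The promoters of Kdm6a, Hdac7 and Rcor3 are shown as examples of an NBRE, an AP-1 site and an NF-kB consensus, in that order, with the matched letters in capitals. A match here describes letters and does not show binding.
Kdm6a, chrX:18162325-18162624, plus strand, match beginning 33 bases before the start: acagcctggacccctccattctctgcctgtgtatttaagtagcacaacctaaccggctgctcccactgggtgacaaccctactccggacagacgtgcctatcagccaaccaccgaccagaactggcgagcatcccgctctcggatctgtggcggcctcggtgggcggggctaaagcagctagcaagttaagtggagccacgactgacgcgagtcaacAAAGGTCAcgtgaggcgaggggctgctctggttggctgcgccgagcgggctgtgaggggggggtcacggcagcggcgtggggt
Hdac7, chr15:97814814-97815113, minus strand, match beginning at base 23 after the start: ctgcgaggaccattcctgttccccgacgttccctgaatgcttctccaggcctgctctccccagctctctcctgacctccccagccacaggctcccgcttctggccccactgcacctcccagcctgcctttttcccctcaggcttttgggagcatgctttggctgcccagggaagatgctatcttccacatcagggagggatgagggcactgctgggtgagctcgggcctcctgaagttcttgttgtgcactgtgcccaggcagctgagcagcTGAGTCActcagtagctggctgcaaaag
Rcor3, chr1:192137991-192138290, minus strand, match beginning 132 bases before the start: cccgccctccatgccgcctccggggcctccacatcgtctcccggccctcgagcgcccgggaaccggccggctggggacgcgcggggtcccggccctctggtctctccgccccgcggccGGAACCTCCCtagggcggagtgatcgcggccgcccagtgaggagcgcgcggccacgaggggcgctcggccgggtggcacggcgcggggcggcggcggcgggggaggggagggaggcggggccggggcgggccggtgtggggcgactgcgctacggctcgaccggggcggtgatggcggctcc

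Levels between genes were compared per length, as RPKM. In unstimulated BMDM-WT the NuRD subunits Chd4 (69.6 ± 5.87 RPKM), Mbd2 (65.5 ± 1.24 RPKM) and Rbbp7 (63.2 ± 1.59 RPKM) led the 36 genes, and neighbours in this order did not differ by more than their summed SDs (all ± SD, n = 4). Ctbp1 followed with 42.6 ± 2.18 RPKM. Among the class I enzymes Hdac1, Hdac3 and Hdac2 lay close together, with 23.5 ± 0.575, 21.9 ± 2.29 and 21.4 ± 1.26 RPKM, and Hdac8 was lower with 2.92 ± 0.191 RPKM. Of class IIa, Hdac5 was the most abundant at rest (13.1 ± 0.846 RPKM), ahead of Hdac9 (7.33 ± 1.41 RPKM), Hdac4 (2.1 ± 0.0978 RPKM) and Hdac7 (1.43 ± 0.234 RPKM). The demethylase Kdm6b was among the lowest at rest with 1.89 ± 0.118 RPKM, and reached 49.6 ± 3.78 RPKM at 1 h. At 5 h Hdac1 had become the third most abundant gene of the set with 74.3 ± 2.73 RPKM.

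After LPS few of these genes were called at 1 h and most of them at 5 and 18 h, when most of all genes tested were called too. A gene was called when its adjusted p was under 0.05 in edgeR's quasi-likelihood test over 11192 genes, with no limit on fold change. At 1 h in BMDM-WT, 3 of 34 genes were higher and 0 lower, where 10.1% of all genes tested were higher and 10.2% lower. At an unadjusted p under 0.05 the number was 8 in either direction, and DESeq2 called 3. At 5 h in BMDM-WT, 9 genes rose and 17 fell, beside 30.1% and 40.1% of all genes, and the median log2 fold change was -0.27 against -0.14 over all genes. At 18 h in BMDM-WT, 8 rose and 14 fell, beside 32.4% and 33.9%. In BMDM-Nur77-KO the counts were 2 higher and 0 lower at 1 h (6.91% and 5.39% of all genes, with 3 genes at an unadjusted p under 0.05 and 3 called by DESeq2), 13 and 14 at 5 h (32.2% and 39.2%), and 12 and 16 at 18 h (33.9% and 35.7%). The 2 genotypes have their own 0 h libraries, so these responses share no samples. In bulk RNA, fewer cells of a type and less RNA per cell cannot be told apart.

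**Figure D1:**
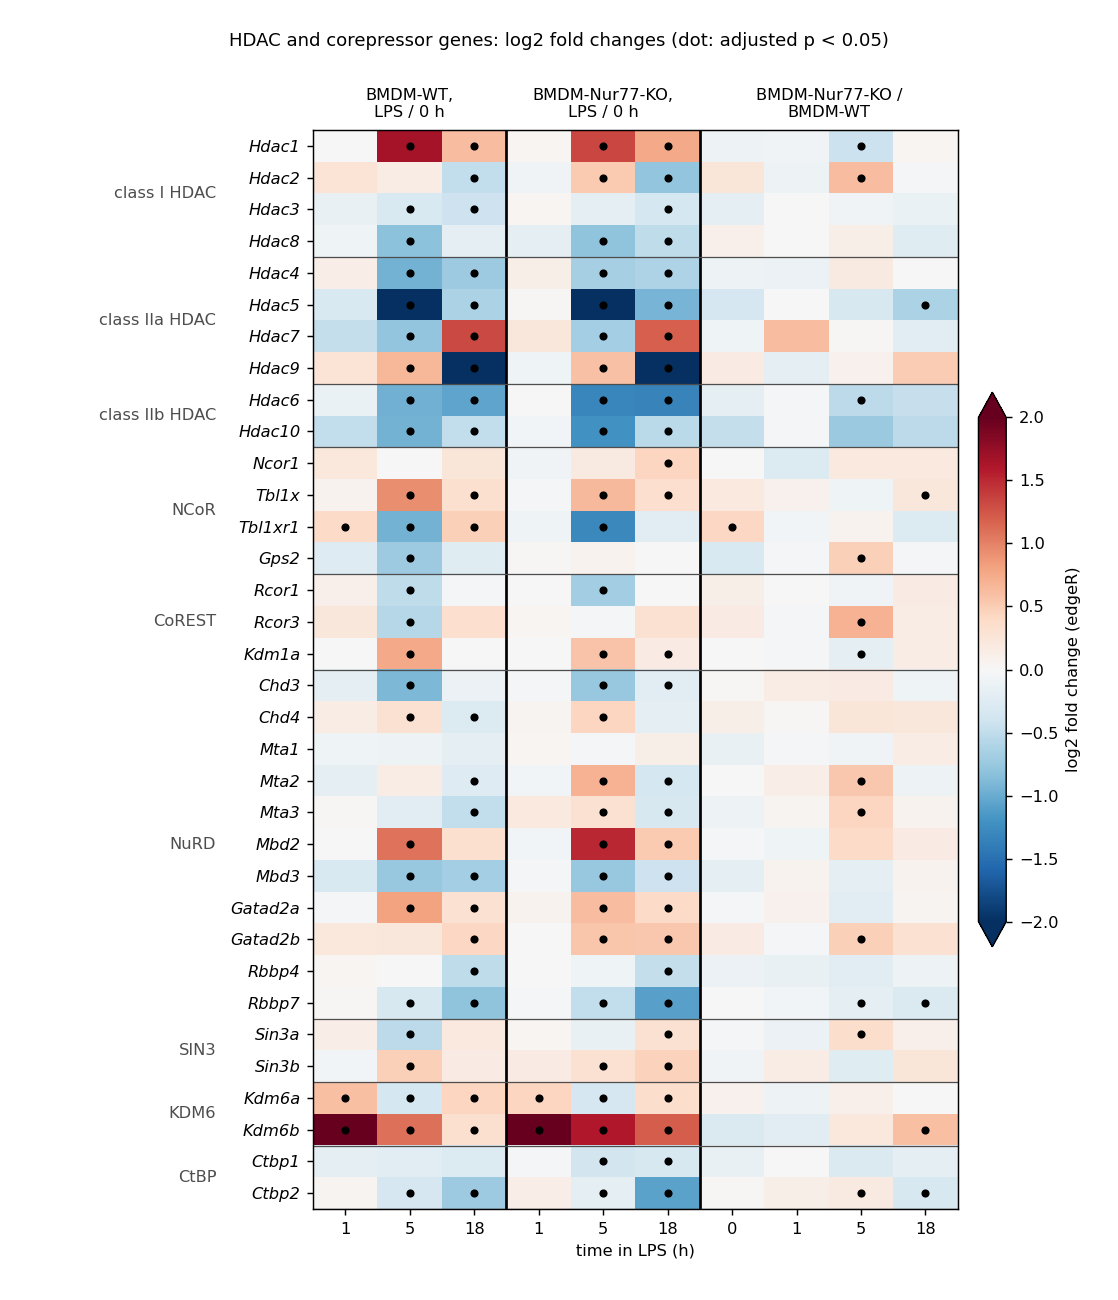
Colour gives the log2 fold change of the 34 tested genes (rows, grouped by complex) after LPS against 0 h in each genotype and between genotypes at each time (columns, h), capped at 2 either way, and dots mark an adjusted p under 0.05 in edgeR. At 1 h only the KDM6 pair and, in BMDM-WT, Tbl1xr1 carry a dot, and at 5 h in BMDM-WT 26 of the 34 genes do.

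Kdm6b (chr11:69398508-69420367, GRCm38.p6) rose more than any other gene of the set, and it did so at 1 h. In BMDM-WT its libraries stood at 11.6, 12.6, 12.5 and 13.5 CPM at 0 h and 329.6, 363, 302 and 325 CPM at 1 h. In BMDM-Nur77-KO they stood at 8.04, 10.7, 11.0 and 11.1 CPM and 338, 263, 257 and 274 CPM. Every library at 1 h was far above every library at 0 h in both genotypes. The fitted log2 change was 4.71 ± 0.13 in BMDM-WT and 4.79 ± 0.13 in BMDM-Nur77-KO (adjusted p = 1.03e-23 and 9.37e-24), and the interaction at 1 h was 0.07 ± 0.16 (adjusted p = 0.85). At 5 h its libraries stood at 24.0, 28.4, 29.7 and 26.0 CPM in BMDM-WT and 38.2, 30.5, 30.7 and 25.7 CPM in BMDM-Nur77-KO, above 0 h and overlapping between genotypes. The log2 fold change against 0 h was then 1.11 ± 0.12 in BMDM-WT and 1.61 ± 0.12 in BMDM-Nur77-KO, with an interaction that did not pass the threshold (0.50 ± 0.17, adjusted p = 0.109). Of the Kdm6b exon bases, 4.11% are shared with the antisense gene Kdm6bos, and the strand rule of the counting was not spelled out.

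At 18 h Kdm6b was back near its resting level in BMDM-WT, with 17.6, 15.6, 14.0 and 15.4 CPM. In BMDM-Nur77-KO it was at 19.8, 25.1, 25.8 and 23.6 CPM. The lowest BMDM-Nur77-KO library was above the highest BMDM-WT library. The difference between genotypes at 18 h was 0.60 ± 0.12 on the log2 scale (adjusted p = 0.000311), and the interaction was 0.89 ± 0.17 (adjusted p = 0.000538). Both calls were kept when any single library was left out, with an interaction of 0.80 to 0.96. The interaction takes in the genotype difference at 0 h, where all BMDM-Nur77-KO libraries were under all BMDM-WT libraries and no difference was called. In BMDM-WT the remaining rise at 18 h was 0.31 ± 0.12 (adjusted p = 0.0233), and without BMDM-WT 0 h replicate 1 or BMDM-WT 18 h replicate 1 it was no longer called (adjusted p up to 0.0861).

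Kdm6a, the X-linked paralogue that also removes H3K27 methylation, moved up, down and up again. In BMDM-WT it stood at 35.1, 37.2, 33.6 and 30.5 CPM at 0 h, 51.3, 49.1, 54.1 and 53.3 CPM at 1 h, 26.3, 26.3, 26.6 and 27.6 CPM at 5 h and 44.1, 40.7, 58.9 and 39.7 CPM at 18 h. The 3 later groups of BMDM-WT did not overlap with 0 h. The log2 fold changes were 0.61 ± 0.12, -0.35 ± 0.12 and 0.43 ± 0.12 (adjusted p = 0.000186, 0.0104 and 0.0019). In BMDM-Nur77-KO its libraries stood at 41.6, 36.2, 35.9 and 31.1 CPM at 0 h, 46.2, 46.7, 54.0 and 47.6 CPM at 1 h, 34.4, 30.3, 27.1 and 23.3 CPM at 5 h and 43.4, 41.2, 43.5 and 56.1 CPM at 18 h. There the groups at 5 and 18 h overlapped with 0 h, and the group at 1 h did not. The 3 changes were called in the same directions as in BMDM-WT, with 0.43 ± 0.12, -0.33 ± 0.12 and 0.35 ± 0.12. The fall at 5 h was not called in either genotype under DESeq2's scaling, with an adjusted p of 0.0604 and 0.0772. In BMDM-Nur77-KO the call at 1 h was lost without BMDM-Nur77-KO 0 h replicate 4 (adjusted p = 0.0545) and the call at 18 h without BMDM-Nur77-KO 18 h replicate 4 (adjusted p = 0.0658). The call at 5 h in BMDM-Nur77-KO was also lost without BMDM-Nur77-KO 0 h replicate 1 or BMDM-Nur77-KO 5 h replicate 4 (adjusted p = 0.068 and 0.0763). No genotype difference was called at any time for this gene. At 18 h that difference was 0.01 ± 0.12 on the log2 scale.

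**Figure D2:**
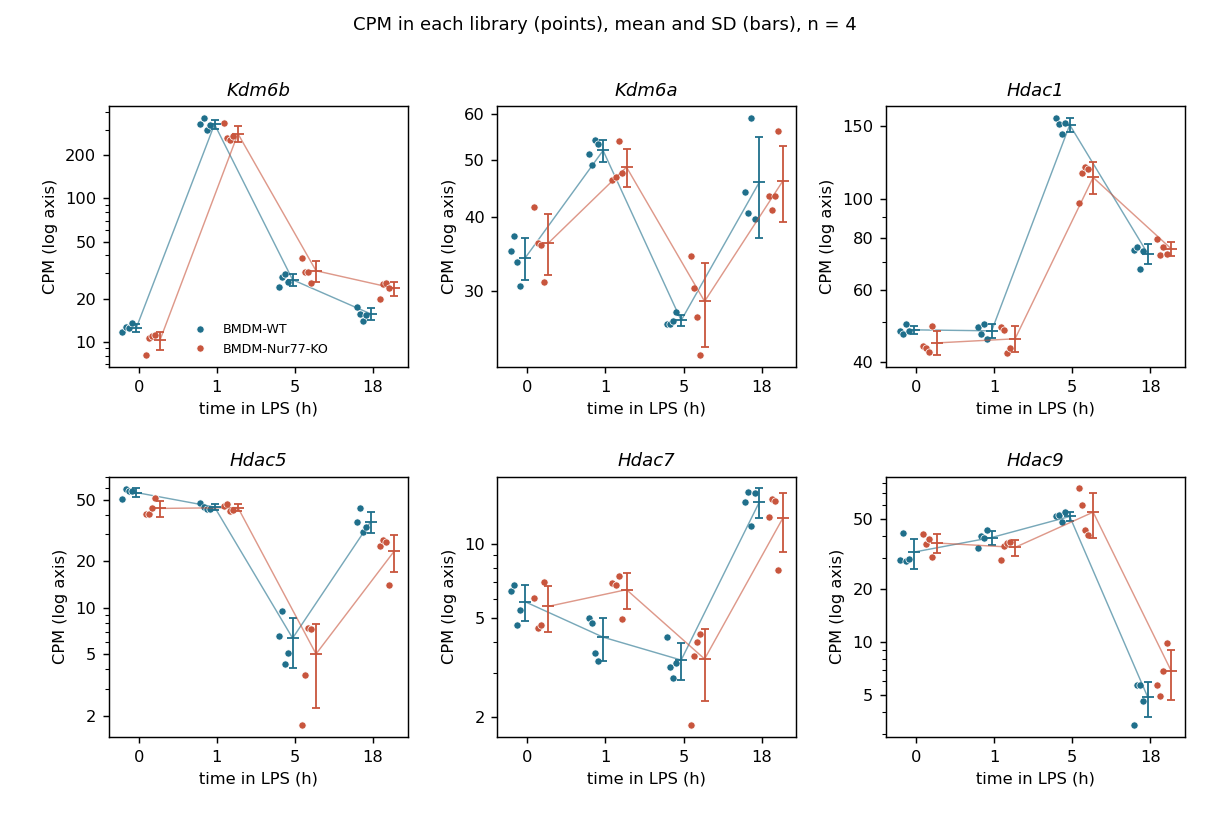
Points are single libraries in CPM (log axis) by time in LPS (h) for Kdm6b, Kdm6a, Hdac1, Hdac5, Hdac7 and Hdac9, with mean and SD over 4 libraries and a line through the means of each genotype. Kdm6b peaks at 1 h, Hdac1 at 5 h and Hdac7 at 18 h, while Hdac5 is lowest at 5 h and Hdac9 at 18 h.

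Of the class I enzymes, Hdac1 rose, Hdac3 and Hdac8 fell, and Hdac2 depended on time. Hdac1 (chr4:129516104-129542646), a catalytic subunit shared by NuRD, CoREST and SIN3, stood at 47.5, 46.9, 49.6 and 47.6 CPM at 0 h and 157, 152, 144 and 153 CPM at 5 h in BMDM-WT. In BMDM-Nur77-KO it went from 43.7, 43.1, 42.3 and 48.9 CPM to 97.4, 116, 119.5 and 118 CPM. No library at 5 h overlapped with 0 h, and no BMDM-Nur77-KO library at 5 h reached the lowest BMDM-WT library. The rise was 1.66 ± 0.07 in BMDM-WT and 1.34 ± 0.07 in BMDM-Nur77-KO on the log2 scale (adjusted p = 1.8e-19 and 4.02e-17). The genotype difference of Hdac1 at 5 h was -0.43 ± 0.07 (adjusted p = 3.79e-05), and without BMDM-Nur77-KO 5 h replicate 1 this was -0.36 ± 0.06 (adjusted p = 0.000146). The interaction at 5 h was -0.32 ± 0.10 and did not pass the threshold (adjusted p = 0.0637). At 1 h the libraries stood at 48.7, 46.8, 49.5 and 45.5 CPM in BMDM-WT and 48.7, 47.9, 42.1 and 43.4 CPM in BMDM-Nur77-KO, overlapping with 0 h. At 18 h they stood at 75.2, 76.3, 67.4 and 74.7 CPM and 79.6, 73.0, 76.1 and 73.2 CPM, above 0 h and overlapping between genotypes.

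Hdac2, the close paralogue of Hdac1, was called higher at 5 h in BMDM-Nur77-KO and not in BMDM-WT, and the interaction did not pass the threshold (0.38 ± 0.25, adjusted p = 0.508). In BMDM-WT it stood at 44.4, 45.6, 40.1 and 41.7 CPM at 0 h and 50.5, 45.6, 46.2 and 49.0 CPM at 5 h. In BMDM-Nur77-KO it stood at 50.4, 54.3, 53.9 and 45.4 CPM at 0 h and 122, 72.1, 49.3 and 51.6 CPM at 5 h. The groups at 0 and 5 h overlapped in both genotypes, and so did the genotypes at 5 h. The response was 0.15 ± 0.18 in BMDM-WT (adjusted p = 0.446) and 0.53 ± 0.17 in BMDM-Nur77-KO (adjusted p = 0.00816), where it was not called without BMDM-Nur77-KO 5 h replicate 1 (adjusted p = 0.202). The high value belongs to replicate 1, the library that stands apart. The genotype difference of 0.62 ± 0.18 (adjusted p = 0.0126) became 0.27 ± 0.13 (adjusted p = 0.167) without it. The 1 h libraries stood at 45.8, 52.9, 54.4 and 53.9 CPM in BMDM-WT and 44.1, 47.9, 52.1 and 49.2 CPM in BMDM-Nur77-KO, and those at 18 h at 32.7, 28.6, 34.2 and 26.2 and 27.9, 24.9, 26.1 and 39.8 CPM. At 18 h Hdac2 was lower in both genotypes, by -0.50 ± 0.18 in BMDM-WT (adjusted p = 0.016, and 0.0549 without BMDM-WT 18 h replicate 4) and -0.78 ± 0.18 in BMDM-Nur77-KO (adjusted p = 0.000297).

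Hdac3, the enzyme of the NCoR complex, was called lower at 18 h in both genotypes. Its libraries stood at 44.9, 37.8, 48.0 and 47.2 CPM at 0 h and 34.7, 38.3, 29.4 and 31.6 CPM at 18 h in BMDM-WT. In BMDM-Nur77-KO the values were 35.6, 39.6, 39.1 and 41.3 CPM and 30.7, 35.7, 27.4 and 28.0 CPM. The ranges at 0 and 18 h overlapped in both genotypes. At 1 h the libraries stood at 45.6, 37.2, 40.1 and 36.6 CPM in BMDM-WT and 42.2, 40.6, 38.1 and 39.6 CPM in BMDM-Nur77-KO. At 5 h they stood at 36.5, 36.3, 37.4 and 33.2 and 27.8, 30.5, 37.6 and 40.3 CPM, without overlap with 0 h in BMDM-WT and with overlap in BMDM-Nur77-KO. The log2 fold change at 18 h was -0.41 ± 0.11 and -0.35 ± 0.11 (adjusted p = 0.00126 and 0.00427), and the fall at 5 h in BMDM-WT (-0.31 ± 0.11, adjusted p = 0.0118) was not called under DESeq2 (adjusted p = 0.0614). No genotype difference was called, and at 5 h it was -0.07 ± 0.11. Hdac8, an X-linked enzyme that works outside these complexes, fell at 5 h by -0.82 ± 0.16 in BMDM-WT and -0.80 ± 0.15 in BMDM-Nur77-KO, from 5.65 ± 0.37 and 6.04 ± 0.571 CPM.

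The 4 class IIa genes split in time. Hdac5 (chr11:102195747-102230172) fell the most at 5 h and was partly back at 18 h. In BMDM-WT it stood at 50.5, 58.6, 56.8 and 57.4 CPM at 0 h, 6.57, 9.51, 4.31 and 5.07 CPM at 5 h and 36.1, 44.2, 30.9 and 33.4 CPM at 18 h. In BMDM-Nur77-KO the values were 40.6, 40.3, 44.2 and 51.3, 1.74, 3.68, 7.45 and 7.25 and 25.0, 27.4, 26.6 and 14.0 CPM. All libraries at 5 h lay under all libraries at the other times. At 1 h Hdac5 was at 47.8, 44.9, 43.6 and 43.7 CPM in BMDM-WT and 45.5, 47.3, 42.3 and 43.4 CPM in BMDM-Nur77-KO, and neither change was called. The fitted log2 change at 5 h was -3.14 ± 0.24 in BMDM-WT and -3.12 ± 0.24 in BMDM-Nur77-KO (adjusted p = 6.42e-13 and 9.31e-13). At 18 h the Hdac5 libraries of the 2 genotypes did not overlap, with BMDM-Nur77-KO the lower, and the log2 difference was -0.64 ± 0.21 (adjusted p = 0.0254). Without BMDM-Nur77-KO 18 h replicate 4 this was -0.46 ± 0.19 (adjusted p = 0.11), and the call was also lost without BMDM-WT 18 h replicate 1 or 2 (adjusted p = 0.0522 and 0.102).

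Hdac7 ran the other way, with its highest level at 18 h. In BMDM-WT its libraries stood at 6.43, 6.78, 4.71 and 5.39 CPM at 0 h, 4.19, 3.17, 2.87 and 3.30 CPM at 5 h and 14.8, 16.2, 11.8 and 16.0 CPM at 18 h. In BMDM-Nur77-KO they stood at 6.03, 4.57, 4.69 and 7.03, 1.84, 3.51, 4.01 and 4.31 and 12.8, 15.1, 14.9 and 7.82 CPM. In each genotype the 18 h libraries were above all 0 h libraries and the 5 h libraries below them. The 1 h libraries of Hdac7 stood at 4.99, 4.80, 3.62 and 3.34 CPM in BMDM-WT and 6.95, 6.78, 7.37 and 4.97 CPM in BMDM-Nur77-KO. The log2 fold changes were -0.79 ± 0.23 at 5 h and 1.33 ± 0.19 at 18 h in BMDM-WT, and -0.68 ± 0.23 and 1.19 ± 0.20 in BMDM-Nur77-KO. The fall at 5 h in BMDM-Nur77-KO (adjusted p = 0.00905) was not called without BMDM-Nur77-KO 5 h replicate 1 (adjusted p = 0.0518), and in neither genotype after a correction on GC content (adjusted p = 0.0556 and 0.118). Hdac7 lies on chromosome 15, 3.41 Mb from Nr4a1. Hdac4, with 17.0 ± 0.792 CPM at 0 h in BMDM-WT, was lower at 5 h (-0.95 ± 0.15) and 18 h (-0.72 ± 0.14), and in BMDM-Nur77-KO too (-0.67 ± 0.15 and -0.62 ± 0.15). Of the Hdac4 exon bases, 22.4% lie opposite Gm26720.

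Hdac9 (chr12:34047580-34917095) rose at 5 h and had fallen steeply by 18 h. In BMDM-WT it stood at 29.4, 41.7, 28.8 and 29.6 CPM at 0 h, 51.7, 52.4, 47.8 and 54.4 CPM at 5 h and 3.38, 5.71, 5.73 and 4.66 CPM at 18 h. In BMDM-Nur77-KO the values were 41.2, 35.9, 38.4 and 30.4, 74.4, 60.2, 43.1 and 40.5 and 5.72, 4.98, 6.85 and 9.94 CPM. At 5 h the libraries lay above 0 h in BMDM-WT and overlapped with it in BMDM-Nur77-KO. The highest BMDM-Nur77-KO value at 5 h, 74.4 CPM, belongs to replicate 1, the library that stands apart. The genotype difference at 5 h was 0.08 ± 0.17 with all libraries and -0.10 ± 0.16 without that library, not called in either case. At 18 h every library of both genotypes was under every library at the other times. The values at 1 h were 34.3, 40.2, 39.0 and 43.2 CPM in BMDM-WT and 29.2, 35.2, 36.7 and 36.7 CPM in BMDM-Nur77-KO, and neither change was called. The log2 fold changes were 0.67 ± 0.17 and -2.73 ± 0.20 in BMDM-WT and 0.58 ± 0.17 and -2.40 ± 0.19 in BMDM-Nur77-KO (adjusted p at 18 h = 3.11e-13 and 1.59e-12).

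Hdac9 is known for a short form that ends before the deacetylase domain, and the count table holds 2 of its transcripts. On the GRCm38 annotation of GENCODE M21 (chromosome 12, minus strand), NM_024124, the one counted above, spans 34371497 to 34528874 with 12 exons. NM_001271386 spans 34052301 to 34528304 with 25 exons and goes on well past the end of the first. They share 1716 exon bases, and have 2697 and 1488 bases of their own. Tags on the long transcript were 55.8%, 58.1%, 64.5% and 70.6% of those on the short one in BMDM-WT at 0 h, and 104%, 109%, 85.6% and 95.4% at 18 h. The BMDM-Nur77-KO libraries had 46.6%, 54.6%, 50.9% and 63.6% at 0 h, and 109%, 111%, 102% and 90.6% at 18 h. At 0, 1 and 5 h no library of either genotype was above 70.6%, and at 18 h none was below 85.6%. At 18 h the short transcript had only 37.0 to 122 tags per library. The difference of 36.3 percentage points in BMDM-WT and 49.0 in BMDM-Nur77-KO gave p = 0.0286 in a two-sided exact permutation test, the smallest that 4 against 4 libraries allow. Over the 90 comparisons made in the same way, on 9 transcripts of 7 of the 36 genes, the adjusted p was 0.429, and that comparison was chosen after the values were seen.

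**Figure D3:**
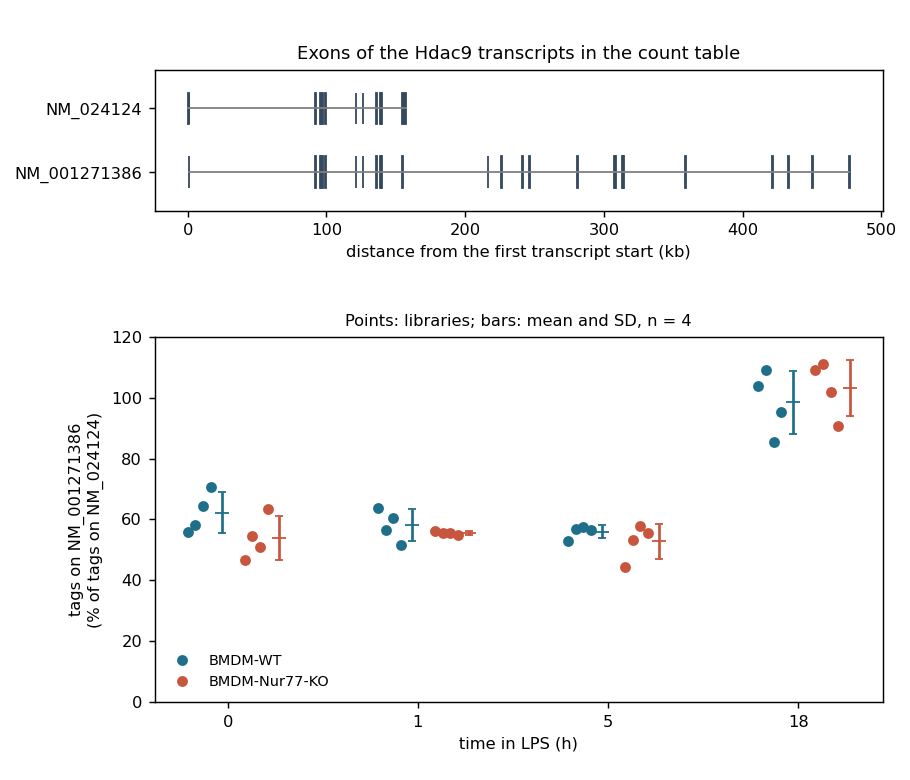
The upper panel draws the exons of the short (NM_024124) and long (NM_001271386) Hdac9 transcripts by distance from the first start (kb). The lower panel plots tags on the long transcript as a percentage of tags on the short one for each library by time in LPS (h), with mean and SD (n = 4): the 18 h libraries sit at 85.6% to 111% and all others at or below 70.6%.

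Both class IIb genes fell. Hdac6, a cytoplasmic tubulin deacetylase, stood at 14.4, 12.9, 13.0 and 16.6 CPM at 0 h, 7.70, 7.68, 6.63 and 7.07 CPM at 5 h and 8.05, 6.76, 4.17 and 8.45 CPM at 18 h in BMDM-WT. In BMDM-Nur77-KO it stood at 9.86, 14.2, 11.2 and 14.8, 3.91, 4.35, 5.92 and 6.07 and 5.27, 5.34, 5.24 and 4.07 CPM. No library at 5 or 18 h reached the 0 h range of its genotype. Hdac6 was at 13.3, 12.4, 13.4 and 12.5 CPM in BMDM-WT and 12.7, 13.0, 11.8 and 12.6 CPM in BMDM-Nur77-KO at 1 h. The log2 fold changes were -0.97 ± 0.16 and -1.05 ± 0.16 in BMDM-WT and -1.31 ± 0.16 and -1.33 ± 0.16 in BMDM-Nur77-KO. The genotype difference at 5 h (-0.52 ± 0.18, adjusted p = 0.0333) was called in some fits and not in others: without BMDM-Nur77-KO 5 h replicate 1 it was -0.42 ± 0.19 (adjusted p = 0.138), and without BMDM-Nur77-KO 5 h replicate 2 or BMDM-WT 5 h replicate 1, 2 or 4 the adjusted p was also over 0.05, at most 0.138.

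Hdac10, a polyamine deacetylase, was low throughout. Its libraries stood at 7.12, 6.05, 6.68 and 7.36 CPM at 0 h and 4.76, 2.44, 2.65 and 4.12 CPM at 5 h in BMDM-WT. In BMDM-Nur77-KO they stood at 3.93, 4.82, 5.39 and 5.27 and 0.868, 1.76, 2.58 and 3.13 CPM. The groups at 0 and 5 h did not overlap in either genotype, and at 0 h all BMDM-Nur77-KO libraries were under all BMDM-WT libraries. The fall at 5 h was -0.95 ± 0.24 and -1.21 ± 0.26 on the log2 scale (adjusted p = 0.00073 and 0.000131). The genotype difference at 0 h was -0.48 ± 0.22 and did not pass the threshold (adjusted p = 0.152). Its 1 h libraries were at 5.13, 4.73, 4.77 and 4.60 CPM in BMDM-WT and 4.81, 4.67, 4.81 and 4.44 CPM in BMDM-Nur77-KO, and those at 18 h at 5.85, 4.95, 3.13 and 5.35 and 3.75, 4.45, 3.5 and 1.71 CPM. The 18 h group did not overlap with 0 h in BMDM-WT and did in BMDM-Nur77-KO. Hdac10 is also on chromosome 15, 12.1 Mb from Nr4a1. The transcript counted for it is annotated as non-coding (NR_028449), and its coding transcript NM_199198 stood at 6.21 ± 0.552 CPM at 0 h and 3.31 ± 0.896 CPM at 5 h in BMDM-WT. The class IV gene Hdac11 had 6 to 14 counts per library at 0 h in BMDM-WT and 0 to 1 at 5 h, with 4 to 8 and 0 to 2 in BMDM-Nur77-KO, and was not tested.

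In the NCoR complex the scaffold was called in 1 comparison and its partners moved apart. Ncor1, the scaffold that carries Hdac3, stood at 153, 169.9, 154 and 154 CPM at 0 h, 153, 161, 182 and 131 CPM at 5 h and 170.4, 182, 222 and 168 CPM at 18 h in BMDM-WT. In BMDM-Nur77-KO it stood at 178, 156, 155 and 144, 233, 182, 174 and 127 and 181, 198, 211 and 260.2 CPM. The ranges overlapped except at 18 h in BMDM-Nur77-KO. That change, 0.43 ± 0.13, was the only one called for Ncor1 (adjusted p = 0.00432). The highest value of that group, 260.2 CPM, belongs to BMDM-Nur77-KO 18 h replicate 4, a library that stands apart. No genotype difference was called, including 1 h, with 168, 176, 180.3 and 205 CPM in BMDM-WT and 151, 150.2, 149 and 154 CPM in BMDM-Nur77-KO, groups that did not overlap (-0.28 ± 0.13, adjusted p = 0.264). Tbl1x, a WD-repeat subunit, rose at 5 h by 0.93 ± 0.07 in BMDM-WT and 0.65 ± 0.07 in BMDM-Nur77-KO. Gps2, the small subunit that restrains JNK signalling, fell at 5 h in BMDM-WT by -0.72 ± 0.17 (adjusted p = 0.000508) and was at 0.07 ± 0.17 in BMDM-Nur77-KO (adjusted p = 0.733). After a correction on GC content the fall of Gps2 was not called (adjusted p = 0.113). The interaction for Gps2 was 0.79 ± 0.24 (adjusted p = 0.0724).

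Tbl1xr1, the paralogue of Tbl1x in the same complex, went the opposite way at 5 h. In BMDM-WT its libraries stood at 79.9, 66.8, 71.7 and 76.0 CPM at 0 h, 36.4, 41.9, 34.1 and 41.1 CPM at 5 h and 90.5, 95.2, 136 and 88.8 CPM at 18 h. In BMDM-Nur77-KO they stood at 114, 98.4, 101 and 80.9, 48.6, 40.3, 38.2 and 34.8 and 77.8, 76.5, 77.9 and 106 CPM. At 5 h all libraries were below all 0 h libraries, and at 18 h only BMDM-WT was above its 0 h range. The log2 fold change at 5 h was -0.94 ± 0.13 and -1.29 ± 0.13 (adjusted p = 2.29e-07 and 4.42e-10), and at 18 h it was 0.48 ± 0.13 and -0.22 ± 0.13 (adjusted p = 0.00149 and 0.123). The interaction at 18 h was -0.70 ± 0.18 (adjusted p = 0.00959), and -0.83 ± 0.17 without BMDM-Nur77-KO 18 h replicate 4. It takes in the genotype difference at 0 h, where BMDM-Nur77-KO was the higher and the libraries did not overlap. At 18 h the genotypes overlapped and no difference between them was called. Tbl1xr1 was also the only gene of the set called between genotypes at 0 h (0.42 ± 0.13, adjusted p = 0.0264). That call was lost without any of BMDM-Nur77-KO 0 h replicates 1, 2 and 3 and BMDM-WT 0 h replicates 2 and 3, with an adjusted p of up to 0.124. At 1 h the libraries were at 86.8, 93.9, 96.3 and 109 CPM in BMDM-WT and 86.8, 89.1, 96.0 and 101 CPM in BMDM-Nur77-KO. The rise at 1 h in BMDM-WT (0.39 ± 0.13, adjusted p = 0.0276) was lost without BMDM-WT 0 h replicate 2 or 3 or BMDM-WT 1 h replicate 3 or 4, with an adjusted p of up to 0.111.

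In CoREST, which joins Hdac1 and Hdac2 to the H3K4 demethylase Kdm1a, the enzyme rose while its scaffold fell. Kdm1a rose at 5 h from 41.4 ± 2.75 to 69.7 ± 3.47 CPM in BMDM-WT (0.75 ± 0.06, adjusted p = 1.67e-12) and by 0.58 ± 0.06 in BMDM-Nur77-KO. Rcor1, the main scaffold, fell from 72.1 ± 2.57 to 50.8 ± 1.01 CPM (-0.50 ± 0.06, adjusted p = 2.06e-08) and by -0.69 ± 0.06 in BMDM-Nur77-KO. Rcor3, a paralogous scaffold, stood at 12.4, 14.4, 12.1 and 12.8 CPM at 0 h and 8.16, 9.63, 8.96 and 8.25 CPM at 5 h in BMDM-WT. In BMDM-Nur77-KO it stood at 15.3, 15.7, 14.9 and 12.2 and 20.4, 14.4, 12.2 and 9.60 CPM. The BMDM-WT groups did not overlap, while the BMDM-Nur77-KO ranges did. Rcor3 fell in BMDM-WT by -0.57 ± 0.16 (adjusted p = 0.00236). At 5 h it was higher in BMDM-Nur77-KO by 0.69 ± 0.16 (adjusted p = 0.00313), but the genotypes overlapped. The lowest BMDM-Nur77-KO library, at 9.60 CPM, was under the highest BMDM-WT library, at 9.63 CPM. Without the library that stands apart the difference was 0.47 ± 0.15 (adjusted p = 0.0274). That fit kept BMDM-Nur77-KO 5 h replicate 2, at 14.4 CPM, which had the next widest trend on GC content of its group (0.662). The interaction was 0.52 ± 0.22 (adjusted p = 0.234). Rcor3 was at 15.1, 15.1, 15.4 and 15.2 CPM in BMDM-WT and 13.8, 15.2, 17.0 and 13.8 CPM in BMDM-Nur77-KO after 1 h, and at 16.1, 13.4, 18.1 and 17.4 and 17.1, 16.2, 15.8 and 23.0 CPM at 18 h, where the genotypes overlapped. Rcor2 had 0 to 29 counts per library and was not tested. At 18 h no CoREST gene was called in BMDM-WT, beside the 32.4% and 33.9% of all genes given above.

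NuRD, which couples deacetylation to the Chd3 and Chd4 remodellers, changed subunit by subunit. Of its 11 genes, 3 rose (Chd4, Mbd2, Gatad2a) and 3 fell (Chd3, Mbd3, Rbbp7) at 5 h in BMDM-WT (30.1% and 40.1% of all genes), and 2 rose and 6 fell at 18 h (32.4% and 33.9%). In BMDM-Nur77-KO 6 rose and 3 fell at 5 h (32.2% and 39.2% of all genes), and 3 rose and 6 fell at 18 h (33.9% and 35.7%). The remodellers parted in BMDM-WT: Chd3 fell at 5 h from 107 ± 2.32 to 57.2 ± 4.62 CPM (-0.90 ± 0.08, adjusted p = 7.73e-12), without overlap. Chd4 rose from 466 ± 39.3 to 575 ± 78.9 CPM (0.30 ± 0.10, adjusted p = 0.00567), and its libraries at 0 and 5 h overlapped. The subunits Mbd2 and Mbd3, which define alternative forms of the complex, parted too. Mbd3 fell at 5 h by -0.76 ± 0.15 in BMDM-WT and -0.76 ± 0.15 in BMDM-Nur77-KO. Gatad2a, one of the paired p66 subunits, rose by 0.81 ± 0.08 and 0.62 ± 0.08. The other p66 subunit, Gatad2b, rose at 18 h by 0.41 ± 0.16 and 0.55 ± 0.16, but not without BMDM-WT 0 h replicate 2 or 4 or BMDM-WT 18 h replicate 3 in the first case (adjusted p up to 0.116) and BMDM-Nur77-KO 18 h replicate 4 in the other (adjusted p = 0.0586). Mta3, a scaffold paralogue of Mta2, fell at 18 h by -0.49 ± 0.12 in BMDM-WT. Mta1 was called in no comparison, and its log2 fold change at 5 h in BMDM-WT was -0.10 ± 0.08.

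Mbd2, which binds methylated DNA, rose at 5 h. In BMDM-WT its libraries stood at 129, 129, 124 and 129 CPM at 0 h and 257, 267, 269.5 and 294 CPM at 5 h. In BMDM-Nur77-KO they stood at 121, 129, 125 and 125 CPM and 615, 330.4, 229 and 241 CPM. All 5 h libraries were above all 0 h libraries, and the library that stands apart had the highest value. The fitted log2 change was 1.09 ± 0.19 in BMDM-WT (adjusted p = 6.35e-06). In BMDM-Nur77-KO it was 1.5 ± 0.19 (adjusted p = 2.87e-08), and 1.10 ± 0.12 without BMDM-Nur77-KO 5 h replicate 1. The genotype difference at 5 h was 0.38 ± 0.18 with all libraries and -0.03 ± 0.12 without that library, not called in either case (adjusted p = 0.125 and 0.923). Values at 1 h were 122, 127, 127 and 134 CPM in BMDM-WT and 122, 121, 117 and 122 CPM in BMDM-Nur77-KO, and at 18 h 161, 160.2, 169.8 and 149 and 161, 149, 153 and 256 CPM. The 18 h groups lay above 0 h, and the change was called in BMDM-Nur77-KO (0.53 ± 0.19, adjusted p = 0.0132) and not in BMDM-WT (adjusted p = 0.126). In BMDM-Nur77-KO it was not called without replicate 4 of that group (adjusted p = 0.129).

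Mta2 (chr19:8941920-8952300), a core scaffold of NuRD, was the only NuRD gene with an interaction called at 5 h. At 5 h its libraries stood at 148, 141, 141 and 130.3 CPM in BMDM-WT and 166, 207, 228 and 216 CPM in BMDM-Nur77-KO. At 0 h they stood at 126, 115, 137 and 131 and 122, 126, 122 and 137 CPM. The genotypes overlapped at 0 h and did not at 5 h, and the library that stands apart was the lowest of the BMDM-Nur77-KO group. Mta2 rose at 5 h in BMDM-Nur77-KO by 0.69 ± 0.08 (adjusted p = 5.15e-09), beside 0.14 ± 0.08 in BMDM-WT (adjusted p = 0.109). The genotype difference at 5 h was 0.54 ± 0.08 (adjusted p = 1.21e-05) and the interaction 0.55 ± 0.11 (adjusted p = 0.0041), with 0.49 to 0.63 when single libraries were left out. With only the libraries compared in the fit the interaction was not called (adjusted p = 0.0649). Without BMDM-Nur77-KO 5 h replicate 1 the difference was 0.63 ± 0.07. Mta2 was at 119, 106, 115 and 104 CPM in BMDM-WT and 132, 120.3, 119 and 119 CPM in BMDM-Nur77-KO after 1 h, and at 106, 106, 103 and 110.0 and 105, 105, 94.7 and 91.7 CPM at 18 h.

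Rbbp7, a histone-binding WD-repeat subunit of NuRD and SIN3, fell in steps. In BMDM-WT it stood at 139.8, 142, 139 and 147 CPM at 0 h and 79.7, 77.7, 88.6 and 79.4 CPM at 18 h. In BMDM-Nur77-KO it stood at 148, 139.9, 146 and 132 and 69.9, 69.0, 62.6 and 64.9 CPM. The 18 h libraries of the 2 genotypes did not overlap. At 1 h Rbbp7 was at 139, 131, 156 and 153 CPM in BMDM-WT and 133, 139.5, 142 and 144 CPM in BMDM-Nur77-KO, and at 5 h at 107, 116, 114 and 119 and 94.4, 95.6, 106 and 106 CPM, below 0 h. The log2 fold change at 18 h was -0.80 ± 0.07 and -1.09 ± 0.07, the genotype difference -0.29 ± 0.07 (adjusted p = 0.00147), and the interaction -0.29 ± 0.09 (adjusted p = 0.0458). The interaction was lost when any of 11 of the 16 libraries behind it was left out, with an adjusted p of up to 0.11. Only BMDM-Nur77-KO 0 h replicate 4, BMDM-Nur77-KO 18 h replicates 1 and 2, BMDM-WT 0 h replicate 4 and BMDM-WT 18 h replicate 2 could be left out with the call kept. It was also not called with only the libraries compared in the fit, under either other filter on low counts or after a correction on GC content (adjusted p = 0.0533 to 0.29). Its paralogue Rbbp4 fell at 18 h by -0.51 ± 0.09 and -0.48 ± 0.09. The 9 markers of proliferating cells were also lower at 18 h. Their summed level was 1119 to 1207 CPM at 0 h and 371 to 440 CPM at 18 h in BMDM-WT, and 979 to 1042 and 286 to 357 CPM in BMDM-Nur77-KO. At 1 h it was 1243 to 1497 CPM in BMDM-WT and 1135 to 1184 CPM in BMDM-Nur77-KO, above 0 h. At 5 h it was 722 to 811 and 736 to 885 CPM, below 0 h. In both genotypes Rbbp7 was below 0 h at 5 h too, and Rbbp4 overlapped with 0 h. All 9 markers were detected in each group, and their part in the result was not tested.

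The SIN3 scaffolds parted at 5 h in BMDM-WT, and of the CtBP pair Ctbp2 fell in both genotypes. Sin3a fell at 5 h in BMDM-WT by -0.52 ± 0.09 (adjusted p = 1.65e-05), from 53.8 ± 2.11 to 37.6 ± 0.676 CPM, while Sin3b rose by 0.47 ± 0.13 (adjusted p = 0.00177). In BMDM-Nur77-KO the change of Sin3a at 5 h was -0.14 ± 0.09 (adjusted p = 0.176). Sin3b was called higher there at 5 h, and its libraries overlapped with 0 h. The interaction at 5 h was called for neither scaffold. The genotype difference of Sin3a at 5 h was 0.35 ± 0.10 (adjusted p = 0.00904). Without BMDM-Nur77-KO 5 h replicate 1 it was 0.24 ± 0.09 (adjusted p = 0.0705). At 18 h both scaffolds rose in BMDM-Nur77-KO (0.31 ± 0.09 and 0.46 ± 0.13). Ctbp1, an NADH-sensing corepressor, was at -0.23 ± 0.13 at 5 h and -0.28 ± 0.13 at 18 h in BMDM-WT, which did not pass the threshold (adjusted p = 0.124 and 0.0625), and at -0.37 ± 0.13 and -0.31 ± 0.13 in BMDM-Nur77-KO, which did. The interactions were -0.14 ± 0.19 and -0.04 ± 0.18 (adjusted p = 0.78 and 0.957). The libraries at 5 and 18 h did not overlap with 0 h in BMDM-WT and did in BMDM-Nur77-KO. The knockout calls were lost without BMDM-Nur77-KO 5 h replicate 1 (adjusted p = 0.0861), and without BMDM-Nur77-KO 18 h replicate 4 or BMDM-Nur77-KO 0 h replicate 1, 3 or 4 (adjusted p up to 0.202).

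Ctbp2 (chr7:132986998-133124009), the paralogue of Ctbp1, fell at 18 h, further in BMDM-Nur77-KO. Its libraries stood at 45.1, 48.6, 46.2 and 48.9 CPM at 0 h and 27.5, 29.3, 28.2 and 28.9 CPM at 18 h in BMDM-WT. In BMDM-Nur77-KO they stood at 45.7, 47.8, 49.2 and 49.8 and 21.6, 24.0, 23.2 and 22.7 CPM. At 18 h every BMDM-Nur77-KO library was under every BMDM-WT library. Ctbp2 was at 49.2, 47.2, 50.6 and 49.3 CPM in BMDM-WT and 52.9, 53.7, 51.8 and 53.9 CPM in BMDM-Nur77-KO after 1 h, and at 32.6, 42.7, 37.4 and 36.3 and 39.7, 43.4, 42.5 and 43.7 CPM at 5 h. The fitted log2 change was -0.73 ± 0.06 in BMDM-WT and -1.07 ± 0.07 in BMDM-Nur77-KO, with an interaction of -0.34 ± 0.09 (adjusted p = 0.0134, and 0.072 with no filter on low counts). The genotype difference at 18 h was -0.31 ± 0.07 (adjusted p = 0.000704), and was not called after a correction on GC content (adjusted p = 0.0581). Of the exon bases of Ctbp2, 5.05% lie on exons of Fgfr2 on the same strand, so that tags there could come from either gene.

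**Figure D4:**
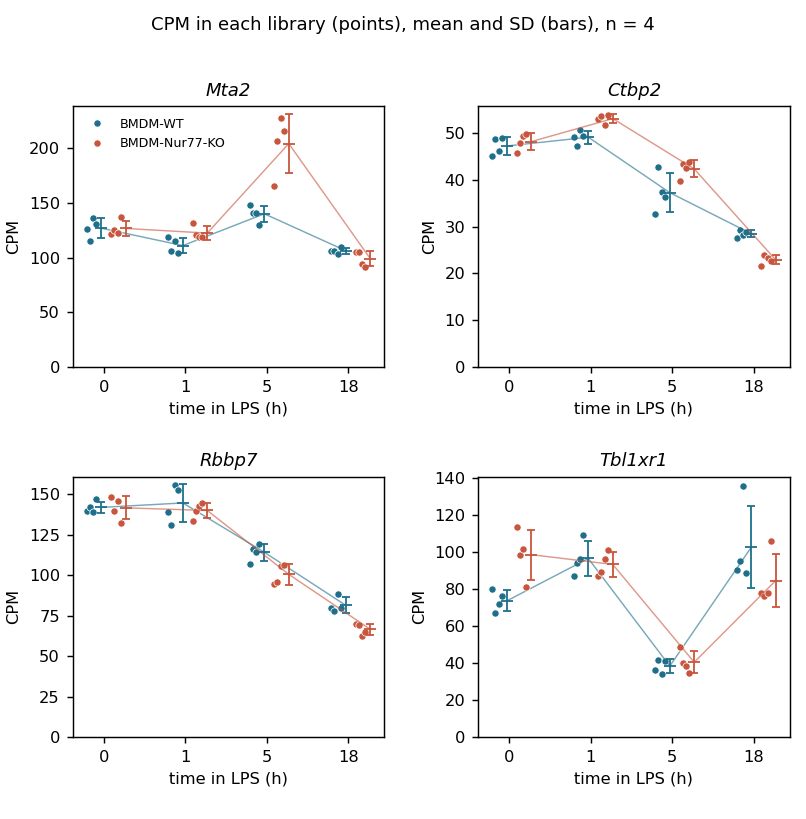
Points are single libraries in CPM by time in LPS (h) for Mta2, Ctbp2, Rbbp7 and Tbl1xr1, with mean and SD over 4 libraries and lines through the means. BMDM-Nur77-KO libraries of Mta2 lie above those of BMDM-WT at 5 h, and those of Ctbp2 and Rbbp7 lie below at 18 h.

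Between genotypes the number of called genes was highest at 5 h and depended on single libraries. Shares of all genes are given for the fit with all libraries. None is given for the other fits, so whether the number over all genes moved alike cannot be told here. The responses to LPS and the interactions share their 0 h libraries. At 0 h, 1 of 34 genes was higher in BMDM-Nur77-KO and 0 lower, where 6.33% and 6.35% of all genes were called, with 4 genes at an unadjusted p under 0.05 and 2 called by DESeq2. At 1 h, 0 were higher and 0 lower in edgeR (3.48% and 3.06% of all genes), with 4 at an unadjusted p under 0.05 and 1 called by DESeq2, which was Hdac7. At 5 h, 8 were higher (Ctbp2, Gatad2b, Gps2, Hdac2, Mta2, Mta3, Rcor3, Sin3a) and 4 lower (Hdac1, Hdac6, Kdm1a, Rbbp7), beside 13.7% and 10.7%. With only the libraries compared in the fit, 2 were called at that time. Without BMDM-Nur77-KO 5 h replicate 1, 4 remained called, all among the 12: Ctbp2, Hdac1, Mta2 and Rcor3. Of these, Ctbp2 (0.19 ± 0.07) was not called without BMDM-Nur77-KO 5 h replicate 2 or 4 or BMDM-WT 5 h replicate 1, 3 or 4 (adjusted p = 0.0622 to 0.17), nor under either other filter on low counts (adjusted p = 0.0545 and 0.108). Without BMDM-WT 5 h replicate 1 the number was 7, and without BMDM-Nur77-KO 5 h replicate 4 it was 19. At 18 h, 2 were higher (Kdm6b, Tbl1x) and 3 lower (Ctbp2, Hdac5, Rbbp7), beside 11.7% and 9.95%, and the number was 3 without BMDM-WT 18 h replicate 2 and 9 without BMDM-WT 18 h replicate 3. Tbl1x (0.22 ± 0.07, adjusted p = 0.0246) was not called without BMDM-Nur77-KO 18 h replicate 2 or 4 or BMDM-WT 18 h replicate 2 or 4, with an adjusted p of up to 0.134. The summed level of the 8 macrophage markers at 18 h was 13859 to 14439 CPM in BMDM-WT and 10895 to 12360 CPM in BMDM-Nur77-KO, and its part in these differences was not tested.

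**Figure D5:**
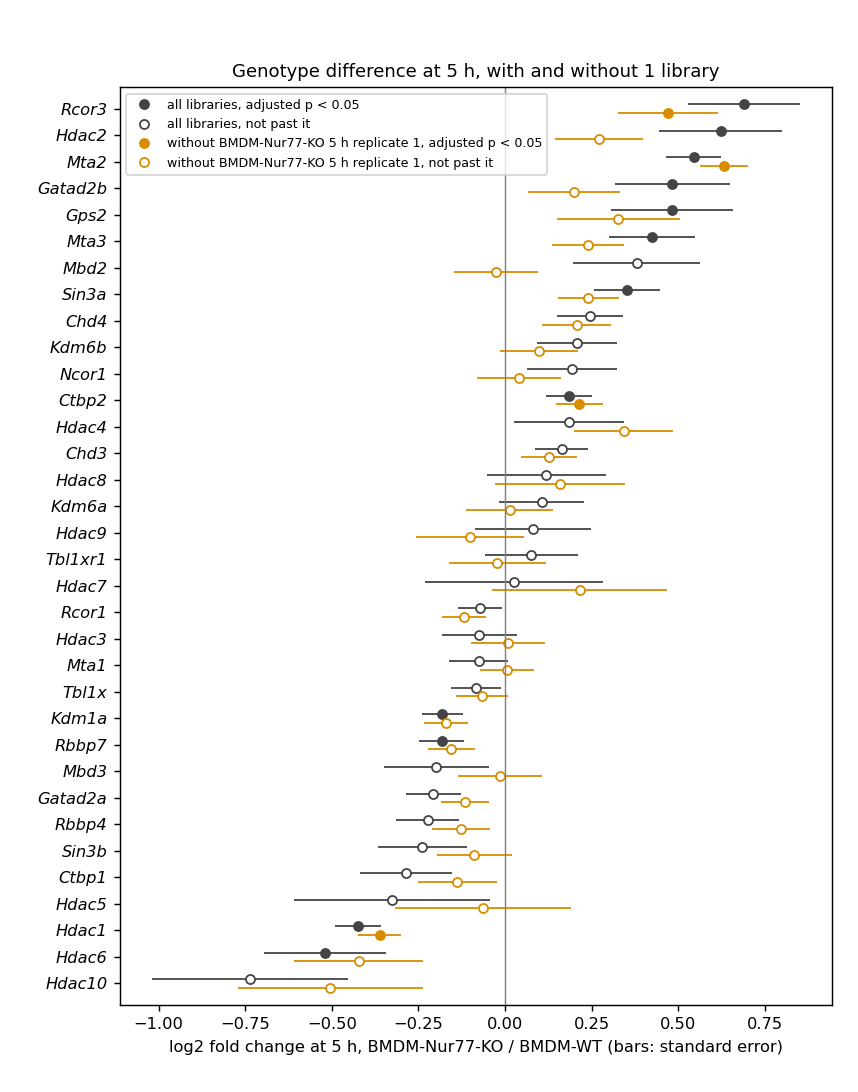
The log2 fold change of BMDM-Nur77-KO against BMDM-WT at 5 h (x axis, bars are standard errors) for the 34 tested genes, with all libraries (grey) and without BMDM-Nur77-KO 5 h replicate 1 (orange), filled where the adjusted p is under 0.05. Filled points fall from 12 to 4 among these genes, and the change over all genes is not given.

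The interaction of genotype and LPS asked whether the response itself differed. At 1 h it was called in 0 of 34 genes by edgeR and by DESeq2, with 2 at an unadjusted p under 0.05, where 0.0715% of all genes were called. At 5 h it was called for 1 gene, Mta2, beside 3.12% of all genes. Without BMDM-Nur77-KO 5 h replicate 3 or 4 the number was 4 and 6. At 18 h it was called for 4 genes, Kdm6b, Tbl1xr1, Ctbp2 and Rbbp7, beside 9.45%, and without both libraries that stand apart for 8. No share of all genes is given for the fits that leave out libraries.

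Other genes of the same machinery were counted from lists. Of 33 tested further corepressor subunits, 13 rose and 15 fell at 5 h in BMDM-WT, where 30.1% of all genes rose and 40.1% fell. Mier3 and Sap30, partners of HDAC1 and HDAC2, rose the most (3.18 ± 0.19 and 2.53 ± 0.11), and the SIN3 subunit Ing2 was among those that fell (-1.94 ± 0.22). Of the 7 sirtuins, the NAD-dependent deacetylases, 1 rose (Sirt1, 1.25 ± 0.16) and 4 fell, led by Sirt3 and Sirt4 (-1.32 ± 0.27 and -1.12 ± 0.23). Of 13 histone acetyltransferases, 6 rose, led by Kat2b and Kat6a (1.79 ± 0.09 and 1.57 ± 0.14), and 5 fell, led by Kat6b and Kat7 (-2.68 ± 0.13 and -0.59 ± 0.06). Of 16 other lysine demethylases, 6 rose, led by Kdm4a and Kdm5c (1.28 ± 0.08 and 0.91 ± 0.08), and 9 fell, led by Kdm2b and Kdm5b (-2.22 ± 0.16 and -1.34 ± 0.11). In PRC2, which writes the mark that Kdm6a and Kdm6b remove, Suz12 rose (0.99 ± 0.16), Ezh2 and Eed fell (-0.97 ± 0.16 and -0.69 ± 0.12), and Ezh1 was at 0.07 ± 0.09 and not called. At 18 h in BMDM-WT the numbers that rose and fell were 16 and 7 of the further subunits, 2 and 0 of the sirtuins, 9 and 2 of the acetyltransferases, 8 and 3 of the demethylases, and 2 and 1 of PRC2, beside 32.4% and 33.9% of all genes. For the knockout at 5 h they were 15 and 11, 1 and 2, 7 and 6, 6 and 7, and 1 and 2 in that order, beside 32.2% and 39.2%, and at 18 h 16 and 5, 2 and 1, 10 and 1, 10 and 3, and 2 and 0, beside 33.9% and 35.7%. The median log2 fold change at 5 h in BMDM-WT was 0.06, -0.45, 0.22, -0.28 and -0.31 for these lists, in the same order, beside -0.14 over all genes.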

How the data were processed

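RNA of 32 BMDM cultures was sequenced as paired-end reads from strand-specific libraries. According to the study's methods, the authors aligned reads to mm10 with HISAT2 2.1.0, kept alignments with a mapping quality over 15, and summed raw tags per RefSeq transcript with HOMER at its default settings. The submitters' processing notes also name CASAVA 1.8.2. The deposited table holds these estimated counts (expected counts) without normalization for 42361 transcripts. Of its values 28.6% are not whole and 100.0% are multiples of 0.5, and they were rounded to whole numbers before testing. What these defaults mean for strand and multi-mapping reads was not spelled out in the sources used here.

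Transcripts were named through RefSeq GRCm38.p6 (42203) and GENCODE M21 (65), and 93 stayed unnamed (0.233% to 1.37% of tags). The transcript with the highest mean count stood for each gene. Genes whose RPKM averaged more than 1 in some group were tested with edgeR 4.0.16 (R 4.3.3, limma 3.58.1): TMM scaling, 1 model over the 8 groups, quasi-likelihood tests and Benjamini-Hochberg adjustment over 11192 genes. The study used DESeq2, here an alternative (version 1.42.0). CPM are TMM-scaled, and ± after a fold change is its standard error. The test was checked on simulated data. Library totals limit the precision of low genes most. Alternatives were other scaling, filters, fold limits, the fit of only the libraries compared, a replicate block, summed transcripts, a GC correction, and leaving out each library.

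Members and lists were chosen with earlier results of these data known. All library values are given for members called with a log2 fold change over 1 after LPS or over 0.58 between genotypes, for those with an interaction called, and for Ncor1, Hdac3, Kdm6a and Kdm6b. Of other lists the 2 largest changes each way at 5 h in BMDM-WT are named, except 1 that is not reported here. The fit without both libraries that stand apart and the comparison of transcripts were chosen after seeing the data. Summed marker levels were at most 24.0 CPM for neutrophils and their precursors, 4.78 for B cells, 21.6 for T and NK cells, 26.8 for dendritic cells, 1.87 for fibroblasts, 0.244 for erythroid cells and 0.325 for mast cells and basophils.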

Additional observations from a re-analysis of the deposited data

Results flagged for a closer look

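Of 272 groups of 4 libraries (34 genes in 8 groups), 24 held a library far from the other 3 by Dixon's test, and chance gives about 1 in 20. In BMDM-Nur77-KO 18 h replicate 4, which held 7 of the 24, Mbd2 stood at 256 CPM (149 to 161 in the others), Gatad2b at 178, Tbl1xr1 at 106, Sin3b at 58, Kdm6a at 56.1, Mbd3 at 21.8 and Hdac6 at 4.07 CPM. In BMDM-Nur77-KO 5 h replicate 1, Hdac1 stood at 97.4 CPM (116 to 120 in the others) and Mbd3 at 13.2 CPM (25.1 to 26.3).

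In BMDM-WT at 0 h, replicate 2 had Hdac9 at 41.7, Ncor1 at 170.0 and Rbbp4 at 136 CPM, and replicate 3 had Mbd2 at 124 CPM. In BMDM-WT at 18 h, replicate 3 had Tbl1xr1 at 136, Rcor1 at 76.6 and Rbbp4 at 121 CPM. In BMDM-WT at 5 h, Mbd3 was at 23.2 CPM in replicate 3 and Sin3a at 36.6 CPM in replicate 2. Sin3b was at 46.8 CPM in BMDM-WT 1 h replicate 4. In BMDM-Nur77-KO at 0 h, Kdm6b was at 8.04 CPM in replicate 1 and Ctbp1 at 86.6 CPM in replicate 2. In BMDM-Nur77-KO at 1 h, Mta2 was at 132 CPM in replicate 1, Tbl1x at 58 CPM in replicate 2 and Sin3a at 52.9 CPM in replicate 4.

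The response to LPS differed between genotypes by the interaction in edgeR's quasi-likelihood test for 5 genes, on the log2 scale: Mta2 at 5 h by 0.55 (adjusted p = 0.0041), and at 18 h Kdm6b by 0.89 (adjusted p = 0.000538), Ctbp2 by -0.34 (adjusted p = 0.0134), Rbbp7 by -0.29 (adjusted p = 0.0458) and Tbl1xr1 by -0.70 (adjusted p = 0.00959).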

How the results depend on the processing

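Counts of called genes depended most on the limit on fold change, since 26 of 34 at 5 h in BMDM-WT became 17 over 0.58 and 4 over 1 on the log2 scale. The same limits gave 9 and 3 in place of 22 at 18 h in BMDM-WT, 17 and 7 in place of 27 and 10 and 6 in place of 28 at 5 and 18 h in BMDM-Nur77-KO, and 1 over 1 in place of 3 at 1 h in BMDM-WT. At 1 h in BMDM-Nur77-KO both limits gave 1 in place of 2, and leaving out single libraries gave 1 to 2. Of all genes, those called over 1 were 15.9% higher and 17.8% lower at 5 h, and 13.3% and 14.1% at 18 h, in BMDM-WT. In BMDM-Nur77-KO they were 16.2% and 16.4% at 5 h, and 15.7% and 16.3% at 18 h. At 1 h they were 3.44% and 1.66% in BMDM-WT and 3.24% and 1.27% in BMDM-Nur77-KO. For the limit of 0.58, for either limit between genotypes and for the alternatives below, no share of all genes is given. Between genotypes the lower limit gave 0 at 0 h and 2 at 5 and 18 h, and for the interaction 0 at 5 h and 2 at 18 h, while the higher limit gave 0 in all 5. Leaving out single libraries gave 0 to 2 at 0 h, 4 to 19 at 5 h and 3 to 9 at 18 h between genotypes, and 1 to 6 for the interaction at 5 h. With only the libraries compared in the fit, the numbers were 10 at 1 h in BMDM-WT, 6, 2 and 2 between genotypes at 0, 1 and 5 h, and 0 for the interaction at 5 h. DESeq2's size factors gave 2 at 0 h, and its test gave 2, 1 and 8 between genotypes at 0, 1 and 18 h and 3 for the interaction at 5 h. A lowess correction on GC content gave 1 and 10 between genotypes at 1 and 18 h and 4 for the interaction at 5 h, and reversed Ctbp2 at 5 h in BMDM-Nur77-KO (0.11, adjusted p = 0.168 in edgeR). Without both libraries that stand apart the numbers were 5 and 8 between genotypes at 5 and 18 h and 8 for the interaction at 18 h, and without a filter on low counts the last was 2. The interaction at 1 h was called for 0 genes under each alternative. The causes were not tested.

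Replicate numbers did not pair the libraries: 27 of 112 same-numbered pairs correlated over 0.1 (median -0.022), and 2 of 32 libraries correlated best with their own number. With a replicate block, 26 genes were called at 5 h in BMDM-WT, 11 between genotypes at 5 h and 3 for the interaction at 18 h. Of 1349 alternatives for 79 values of the genes given in full, 612 that left out 1 library and 626 others kept direction and call, 60 and 50 lost the call, and 1 reversed. DESeq2's scaling moved the median of all genes by at most 0.091 (log2). Depth limited Hdac11, Rcor2 and, at 18 h, the transcripts of Hdac9.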
